A study of Mus musculus with 8 samples.

Results

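The genes described here are 38 mouse genes of the NF-kB pathway and of the chemokine and cytokine output that this pathway helps to control. They were named as a list: 11 pathway components, 2 adhesion receptors, 12 chemokines and 13 cytokines. A gene counted as measured when the platform annotation assigned it a probe set of its own, and it was then represented by the probe set with the highest mean over the arrays. By this rule 37 of the 38 were measured, of 18193 genes on the array, and Nfkb1 was not analysed here. Expression was measured with 8 Affymetrix Mouse Genome 430 2.0 arrays, a single-colour whole-genome array. Each of 4 mouse epithelial cell lines gave 1 array of stimulated cells and 1 array of resting cells. NMuMG and EpH4 come from the mammary gland, and EpH4 is labelled EMT resistant, EMT being the epithelial-mesenchymal transition in which epithelial cells take on a fibroblast-like state. mProx is a proximal renal tubular line and MCT a renal tubular line. Stimulated cells received recombinant human TGF-b1 (3 ng/mL) together with recombinant human EGF (3 ng/mL) over 24 h, and resting cells received neither. All cells had spent the preceding 24 h in K-1 medium, which contains insulin and transferrin, and treatment continued in that medium. The labels name no genetic modification, no passage number and no number of cultures per array.

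NF-kB is a family of dimeric transcription factors built from the subunits Rela, Relb, Rel and the processed products of Nfkb1 and Nfkb2. In resting cells inhibitors of the IkB family, such as Nfkbia, hold the dimers in the cytoplasm. Cytokines and microbial products activate the IkB kinases, the inhibitor is degraded and the dimers enter the nucleus. Several of their targets are brakes on the same pathway, among them Nfkbia, Nfkbie and Tnfaip3, and others are chemokines and cytokines by which epithelial cells of the kidney and the mammary gland recruit leukocytes.

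The promoters of the members that hold a match to the NF-kB binding motif, and whose levels or changes are described below, are shown first. RefSeq windows on GRCm38.p6, running from 250 bases before to 50 bases after a gene's start, were available for 26 of the 38 genes, in 31 windows. The kB consensus, searched on both strands, was found in 13 of the 31 windows (41.9%), belonging to 11 genes, against 4.51% of all 32851 windows. The genes were named for this pathway and its output, so a higher share is in part built into the list, and it was not tested. The genes with a match were Bcl3, Ccl20, Csf1, Cxcl1, Cxcl10, Cxcl2, Il6, Nfkb2, Nfkbia, Nfkbie and Tnfaip3. Members without a window were not searched, so a member missing here does not necessarily lack a match. The 180 bases before the start of 6 of them are printed 5′ to 3′ on the gene's own strand, with the bases of a match in capitals. They lie at chr5:90891065-90891244 (plus strand) for Cxcl1, chr5:90903719-90903898 (plus) for Cxcl2, chr1:83116586-83116765 (plus) for Ccl20, chr5:92348890-92349069 (minus) for Cxcl10, chr12:55492648-55492827 (minus) for Nfkbia and chr10:19015411-19015590 (minus) for Tnfaip3.
Cxcl1: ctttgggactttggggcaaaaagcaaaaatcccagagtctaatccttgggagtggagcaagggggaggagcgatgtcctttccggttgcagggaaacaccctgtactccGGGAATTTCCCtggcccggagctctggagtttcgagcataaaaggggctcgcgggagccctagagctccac
Cxcl2: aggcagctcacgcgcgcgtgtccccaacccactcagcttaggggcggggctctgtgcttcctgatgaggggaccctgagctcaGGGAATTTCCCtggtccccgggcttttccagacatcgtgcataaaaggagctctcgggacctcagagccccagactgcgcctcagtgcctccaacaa
Ccl20: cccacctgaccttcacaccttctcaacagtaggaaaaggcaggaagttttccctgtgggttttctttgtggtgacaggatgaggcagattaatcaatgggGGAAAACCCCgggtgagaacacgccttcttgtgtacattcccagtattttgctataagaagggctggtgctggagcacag
Cxcl10: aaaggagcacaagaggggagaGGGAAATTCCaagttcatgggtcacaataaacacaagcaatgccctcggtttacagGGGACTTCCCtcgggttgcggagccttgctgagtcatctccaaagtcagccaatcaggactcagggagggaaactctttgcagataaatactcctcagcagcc
Nfkbia: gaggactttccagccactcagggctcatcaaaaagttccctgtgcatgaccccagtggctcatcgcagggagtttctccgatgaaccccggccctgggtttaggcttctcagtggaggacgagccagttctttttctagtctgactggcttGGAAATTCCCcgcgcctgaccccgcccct
Tnfaip3: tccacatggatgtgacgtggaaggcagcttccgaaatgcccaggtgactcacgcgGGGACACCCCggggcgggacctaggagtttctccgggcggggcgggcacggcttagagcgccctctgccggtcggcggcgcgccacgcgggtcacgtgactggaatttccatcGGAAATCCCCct
In these windows the matches nearest to the start began 70 bases before the start in Cxcl1, 96 in Cxcl2, 80 in Ccl20, 103 in Cxcl10, 29 in Nfkbia and 12 in Tnfaip3. A match is a description of the letters and not a measured binding site. The 6 genes with printed promoters did not share 1 pattern of expression, as the values below show. In the gene order of the same assembly, Cxcl15, Cxcl1 and Cxcl2 are direct neighbours on chromosome 5, with Cxcl5 next to them across 3 genes (Ppbp, Pf4 and Cxcl3). Ccl2 and Ccl7 are direct neighbours on chromosome 11.

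Signals below are the intensities as deposited, on a linear scale. A level is log2 of the signal plus 10.6, quantile-normalized across the arrays, and a change is the stimulated level minus the resting level of the same line. Adding 10.6 understates the changes of dim genes. A level under 5.27, the 40th percentile of all probe sets, is called dim, and 29 of the 37 genes reached it on average and were tested among 12697 genes. Array medians ran from 41.5 to 59.6 and trimmed means from 209 to 376, so signals of different arrays are not on a strictly common scale. Defining epithelial markers were not uniform: Cdh1 (E-cadherin) had signals of 1.4 and 10.2 in stimulated mProx and MCT cells, against 1.2 and 3.8 in resting ones, and 978 to 4480 on the EpH4 and NMuMG arrays. Others on the epithelial list did not all follow Cdh1. Krt18 had signals of 1333 and 5797 in stimulated mProx and MCT cells, against 606 and 3064 in resting ones. Tjp1 lay between 1555 and 2823 on all 8 arrays, and Cldn3 between 6.1 and 10.0 in all lines but EpH4. Aqp1, a proximal tubule marker, was high in mProx, with a signal of 2545 in stimulated and 7014 in resting cells. The other measured proximal tubule markers, Lrp2, Cubn, Slc34a1, Slc5a2 and Hnf4a, did not set mProx apart. Their signals were 36.4 to 71.6 in stimulated and 31.9 to 85.8 in resting mProx cells. In the other lines they were 35.8 to 120 in stimulated and 28.5 to 118 in resting cells. The mammary keratins Krt14 and Krt7 had signals of 3308 and 8660 in stimulated and 2431 and 8616 in resting EpH4 cells, against 3.2 and 173 in stimulated and 4.9 and 112 in resting NMuMG cells. Gata3 had signals of 271 in stimulated and 429 in resting EpH4 cells, against 4.2 and 30.4 in NMuMG cells. The remaining mammary markers, Krt5, Trp63, Elf5, Csn2, Wap and Ltf, reached at most 102 in stimulated and 87.1 in resting cells of EpH4 and NMuMG. Of 14 measured leukocyte genes, Ptprc, Aif1 and Cd52 were dim on all 8 arrays, and 6 were above the dim level on every array. Among these was Cd14, with signals of 267 to 816 in stimulated and 300 to 1614 in resting cells. Of 7 endothelial genes, Pecam1, Tek and Tie1 were dim on all 8 arrays, and 0 were above the dim level on every array. Within a line each condition has 1 array, so a change in 1 line has no replicate check and no p-value.

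RNA signals of the measured pathway components were above the dim level throughout, and those of most secreted factors were dim on at least 1 array. Protein was not measured, and a dim signal does not show that a product was absent. All 10 measured pathway components were above the dim level on every array, against 4 of 12 chemokines and 3 of 13 cytokines. Over the 37 genes this was 18 (48.6%), against 56.5% of all measured genes. Cxcl15, a neutrophil chemokine, and the cytokines Il1a, Il6 and Tnf were dim on all 8 arrays (10.8% of the 37, against 17% of all genes). Tnf, a principal activator of NF-kB, had signals of 5.5 to 8.1 in stimulated cells and 5.4 to 26.3 in resting cells. Il6, an inflammatory cytokine, had signals of 0.9 to 25 in stimulated and 0.8 to 9.0 in resting cells, with both NMuMG arrays at the top.

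**Figure D1:**
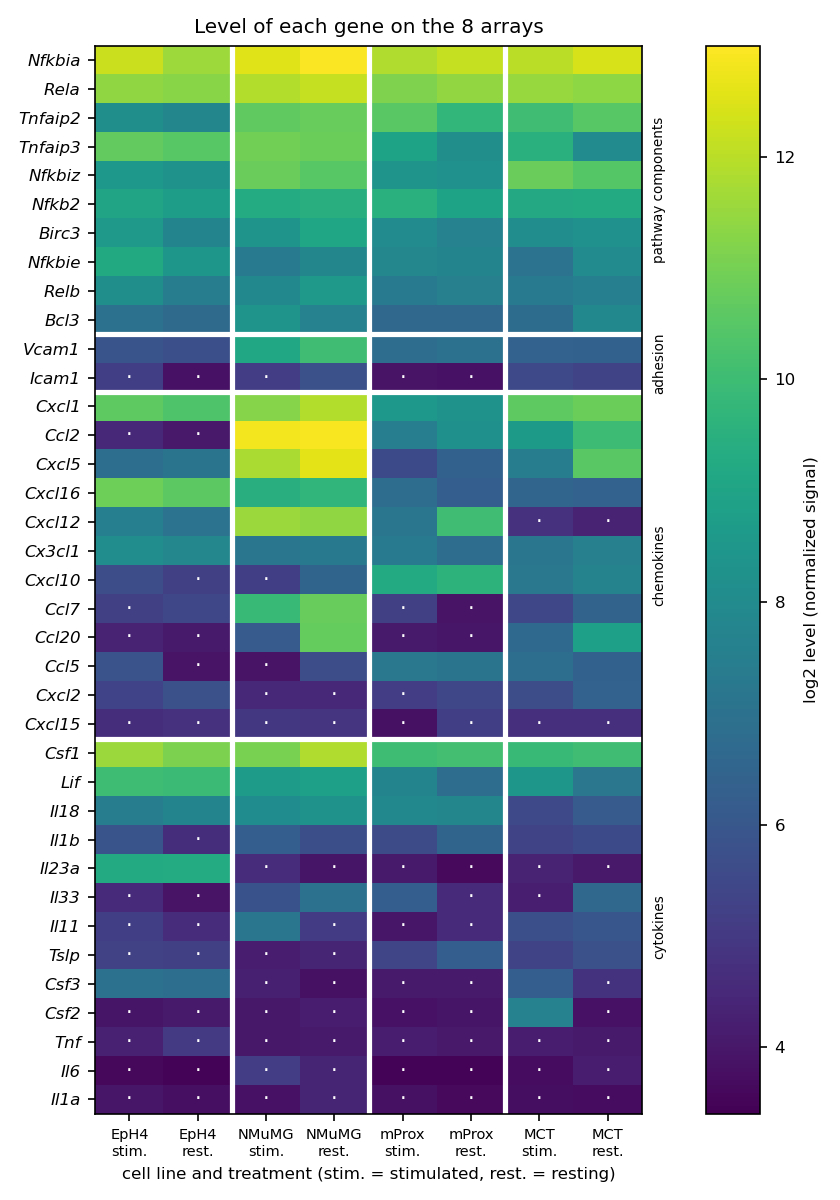
Levels of the 37 genes (rows, by class and then by mean level) on the 8 arrays (columns, the stimulated array of each line left of its resting array). Colour is the log2 normalized level, and a white dot marks a level under 5.27; pathway components carry no dot on any array, and Cxcl15, Il1a, Il6 and Tnf carry one on all 8.

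The 4 widest differences between lines among the 37 genes were those of chemokines, Ccl2, Cxcl12, Cxcl5 and Ccl7. The difference between the highest and the lowest line, each line being the mean of its 2 arrays, had a median of 4.12 on the log2 scale over the 12 chemokines, 1.84 over the 13 cytokines and 1.10 over the 10 pathway components, against 0.88 over all measured genes. It was 4 or more for 7 of the 37 genes (18.9%), against 2.64% of all genes: Ccl2, Ccl7, Ccl20, Cxcl5, Cxcl12, Cxcl16 and Il23a. NMuMG had the highest level of the 4 lines for 24 of the 37 genes (64.9%), against 22.6% of all genes. These 24 include 9 of 10 pathway components, 7 of 12 chemokines and 6 of 13 cytokines, with Cxcl15, Il1a and Il6 among them, which were dim on all 8 arrays. The count depends on the scaling. By the signals as deposited, a setting added here after the data were seen, NMuMG was highest for 17 of 37 genes (45.9%), against 12.3% of all genes. Of the pathway components only Bcl3, Nfkbia, Rela and Tnfaip2 remained, 4 of 10, and the 7 chemokines were the same genes. The difference between lines exceeded the change in any line for 27 of 37 genes (73%), among them 10 of 12 chemokines (83.3%), against 69.7% of all measured and 82.1% of all tested genes, so that these shares are near the background.

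A test for any difference in level between the 4 lines (moderated F-test in limma, with treatment as an added term, Benjamini-Hochberg adjusted over 12697 genes) called 21 of the 29 tested members (72.4%), against 66.7% of all genes tested. The members' share is near that background. By class it called 10 of 11 chemokines, 6 of 10 pathway components, 4 of 7 cytokines and Vcam1. The 2 arrays of a line differ in treatment and are not replicate cultures. The test sets the differences between lines against what is left after line and treatment are fitted, which includes any response particular to a line. The lowest adjusted p-values were 7.91e-06 for Cxcl16, 8.19e-06 for Ccl2 and 9.48e-06 for Nfkbiz. Il23a (1.91e-05) was dim on 6 arrays and entered the test through its level in EpH4, so its call follows in part from the filter. Some of these calls rest on 1 line. Without NMuMG the calls were lost for Rela (adjusted p = 0.65), Nfkbia (0.52), Ccl7 (0.154) and Cxcl2 (0.167). Without EpH4 they were lost for Nfkbie (0.739), Tnfaip2 (0.265) and Il23a (0.707), and without mProx for Ccl5 (0.123). Without MCT they were lost for Cxcl2 (0.0689) and Il18 (0.0756). Other genes passed when a line was left out: Relb without EpH4 (0.0444), Il11 without NMuMG (0.0406), and Bcl3 (0.00614), Cx3cl1 (0.0296) and Il33 (0.0496) without MCT. Il11, with a mean level of 5.29, entered the test through its level of 7.18 in stimulated NMuMG cells. Its EpH4 and mProx arrays were all dim, so its call without NMuMG concerns a gene that the filter kept through the line left out.

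**Figure D2:**
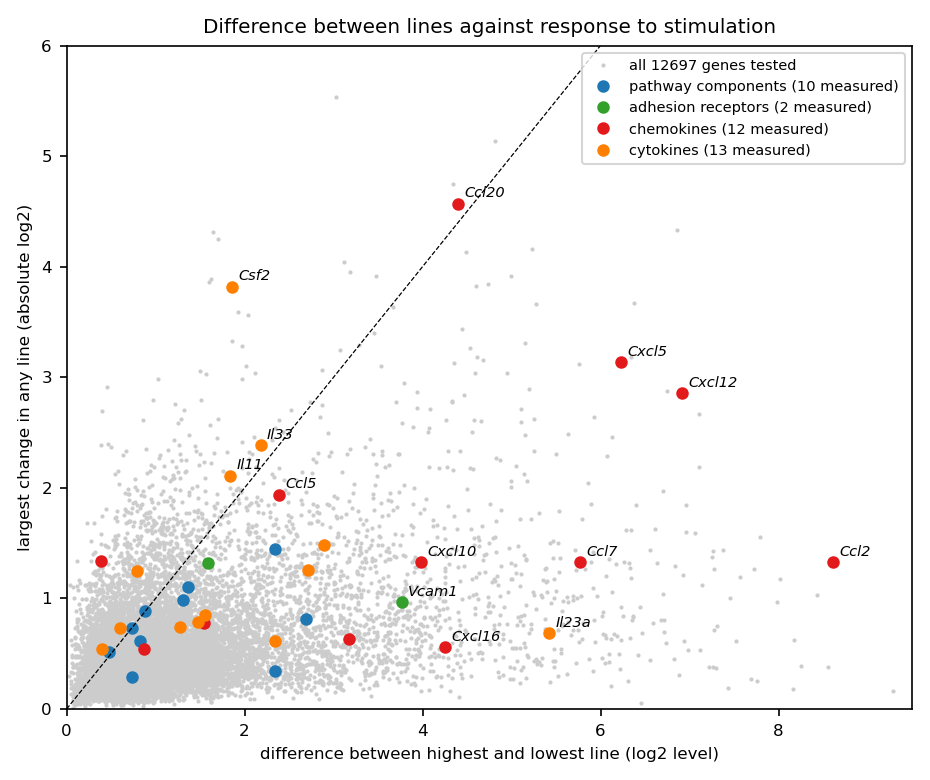
Difference between the highest and the lowest line (x axis, log2 level) against the largest absolute change on stimulation in any line (y axis, log2) for the 37 genes, coloured by class, and for all 12697 genes tested (grey). The dashed line marks equal values; Ccl2 lies farthest to the right at 8.61 with a largest change of 1.33, and Ccl20 is the highest of the 37 at 4.57.

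Among the subunits, Rela, which carries the main transactivation domain of the canonical dimer, had signals of 2873, 3913, 2394 and 2563 in stimulated EpH4, NMuMG, mProx and MCT cells, against 3202, 3761, 2958 and 2581 in resting cells. Its changes stayed between -0.29 and 0.16. Relb, the subunit of the alternative pathway, had signals of 304, 194, 169 and 134 in stimulated cells of the same lines, against 211, 248, 221 and 180 in resting cells. The change was 0.73 in EpH4 and between -0.66 and -0.13 in the other 3 lines. Nfkb2, the precursor of the p52 partner of Relb, had changes of at most 0.52, in mProx.

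Nfkbia, the IkB alpha inhibitor and a direct target of NF-kB, had signals of 4934, 6325, 3817 and 3704 in stimulated EpH4, NMuMG, mProx and MCT cells, against 3873, 7155, 4648 and 5574 in resting cells. It was higher after stimulation in EpH4 alone, with a change of 0.62, and was lower in NMuMG, mProx and MCT by similar amounts, with changes of -0.41, -0.31 and -0.42. Its 5 probe sets, all above the dim level on average, were all higher in EpH4 (0.49 to 0.84) and all lower in mProx and MCT, and in NMuMG they ran from -0.65 to 0. Nfkbie, the IkB epsilon inhibitor, had signals of 654, 140, 238 and 102 in stimulated cells, against 462, 152, 248 and 258 in resting cells. Its largest changes were 0.76 in EpH4 and -0.99 in MCT, and its level was highest in EpH4. Nfkbiz, an atypical nuclear IkB protein that assists transcription of a subset of targets, had signals of 384, 1672, 349 and 1531 in stimulated cells, against 418, 1048, 366 and 1408 in resting cells. The NMuMG and MCT arrays lay above all EpH4 and mProx arrays, and the change was 0.10 to 0.34 in the 4 lines. Its 3 probe sets did not all give that direction, since the dimmest ran from -0.45 in NMuMG to 1.2 in MCT.

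Tnfaip3 (A20), the ubiquitin-editing enzyme that shuts the pathway off upstream of the IkB kinases, had signals of 1791, 1890, 534 and 600 in stimulated cells, against 1927, 1333, 330 and 257 in resting cells. The mammary lines were high in both conditions. Both kidney lines were lower at rest and higher after stimulation, 1.80-fold in mProx and 2.73-fold in MCT on the scale of signal plus 10.6 after normalization. A dimmer Tnfaip3 probe set gave changes of 0.80 and 0.64 in mProx and MCT. Tnfaip2, a target induced by TNF, had signals of 304, 1492, 1567 and 897 in stimulated cells, against 282, 1251, 984 and 1430 in resting cells, so that EpH4 was the low line. Bcl3, a nuclear IkB protein that works with p50 and p52 dimers, had signals of 120, 280, 94.2 and 83.8 in stimulated cells, against 115, 138, 109 and 233 in resting cells. It was 1.66-fold higher in NMuMG and 2.14-fold lower in MCT. Birc3 (cIAP2), a ubiquitin ligase of the TNF receptor complex, had changes of 0.89 in EpH4, -0.74 in NMuMG, 0.39 in mProx and -0.17 in MCT.

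Of the adhesion receptors that hold leukocytes on cell surfaces, Vcam1 marked NMuMG. Its signals were 47.4, 477, 112 and 61.8 in stimulated EpH4, NMuMG, mProx and MCT cells, against 51.1, 753, 138 and 74.5 in resting cells. The level test gave an adjusted p of 9.26e-05 (limma). Vcam1 was 1.96-fold lower after stimulation in NMuMG, and all 3 of its probe sets were lower there, by -0.85 to -1.38 on the log2 scale. Icam1 was dim on 5 of 8 arrays and was not tested. In EpH4 its signal was 24.3 in stimulated cells, against 4.8 in resting cells, both dim.

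Of the CC chemokines, Ccl2 had the widest difference between lines of all 37 genes, 8.61 on the log2 scale. Ccl2, the main attractant of monocytes, had signals of 10.6, 7607, 189 and 326 in stimulated EpH4, NMuMG, mProx and MCT cells, against 7.3, 7024, 354 and 995 in resting cells. EpH4 was dim on both arrays, and NMuMG lay far above the 3 other lines in both conditions. Ccl2 was 1.64-fold lower in mProx and 2.51-fold lower in MCT, with a change of -0.09 in NMuMG. Ccl7, a monocyte attractant encoded next to Ccl2, had signals of 25.2, 853, 27.7 and 28.3 in stimulated cells, against 39.5, 1263, 4.9 and 78.7 in resting cells. NMuMG was again the high line, and the change ran from -1 in MCT to 1.33 in mProx, where both arrays were dim.

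Ccl20, which attracts Ccr6-bearing lymphocytes and dendritic cells, gave the largest change of all 37 genes. Its signals were 9.0, 58.8, 6.7 and 77.3 in stimulated EpH4, NMuMG, mProx and MCT cells, against 7.9, 1226, 6.1 and 445 in resting cells. It was 23.7-fold lower in stimulated NMuMG cells and 4.36-fold lower in stimulated MCT cells, and dim on both arrays of EpH4 and mProx. Ccl5 (RANTES), an attractant of T cells, had signals of 45.2, 4.3, 156 and 87.6 in stimulated cells, against 5.4, 34.1, 152 and 72.9 in resting cells. The mammary lines moved in opposite directions, with changes of 1.94 in EpH4 and -1.78 in NMuMG, each with 1 dim array, and the changes were 0.17 in mProx and 0.48 in MCT. With an offset of 50 in place of 10.6 these changes were 0.78 and -0.63.

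Of the CXC chemokines that attract neutrophils through Cxcr2, Cxcl5 and Cxcl1 were highest in NMuMG, and Cxcl2, which was near the dim level, was highest in MCT. Cxcl5 had signals of 106, 3538, 37.6 and 136 in stimulated EpH4, NMuMG, mProx and MCT cells, against 160, 5383, 86.4 and 1501 in resting cells. It was lower after stimulation in all 4 lines, 8.83-fold in MCT, 1.79-fold in NMuMG, 1.78-fold in mProx and 1.17-fold in EpH4. Cxcl1 was measured by 3 probe sets that disagree. The brightest, marked as cross-hybridising, had signals of 1732, 2384, 385 and 1354 in stimulated cells, against 1746, 3069, 383 and 1808 in resting cells, with a change of -0.21 in MCT. The probe set with no such mark and no shared-transcript mark had signals of 105, 3576, 130 and 870 in stimulated cells, against 139, 3936, 228 and 2841 in resting cells, with a change of -1.46 in MCT, and the remaining probe set gave -1.41 there. EpH4 was therefore a bright line by 1 probe set and a dimmer one by the others. The level test called Cxcl1 with either choice (adjusted p = 5.33e-05, and 1.21e-05 with cross-hybridising probe sets avoided, limma). Cxcl2, encoded beside Cxcl1, had signals of 28.6, 12.6, 26.2 and 33.3 in stimulated cells, against 53.7, 10.1, 38.2 and 76.9 in resting cells. NMuMG, the high line for Cxcl1 and Cxcl5, was the low line for Cxcl2. The mean level of Cxcl2 was only 5.35, and it was dim on both NMuMG arrays and in stimulated mProx cells. Cxcl15 had a signal of 3.9 in stimulated mProx cells, against 29.5 in resting ones, both dim.

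**Figure D3:**
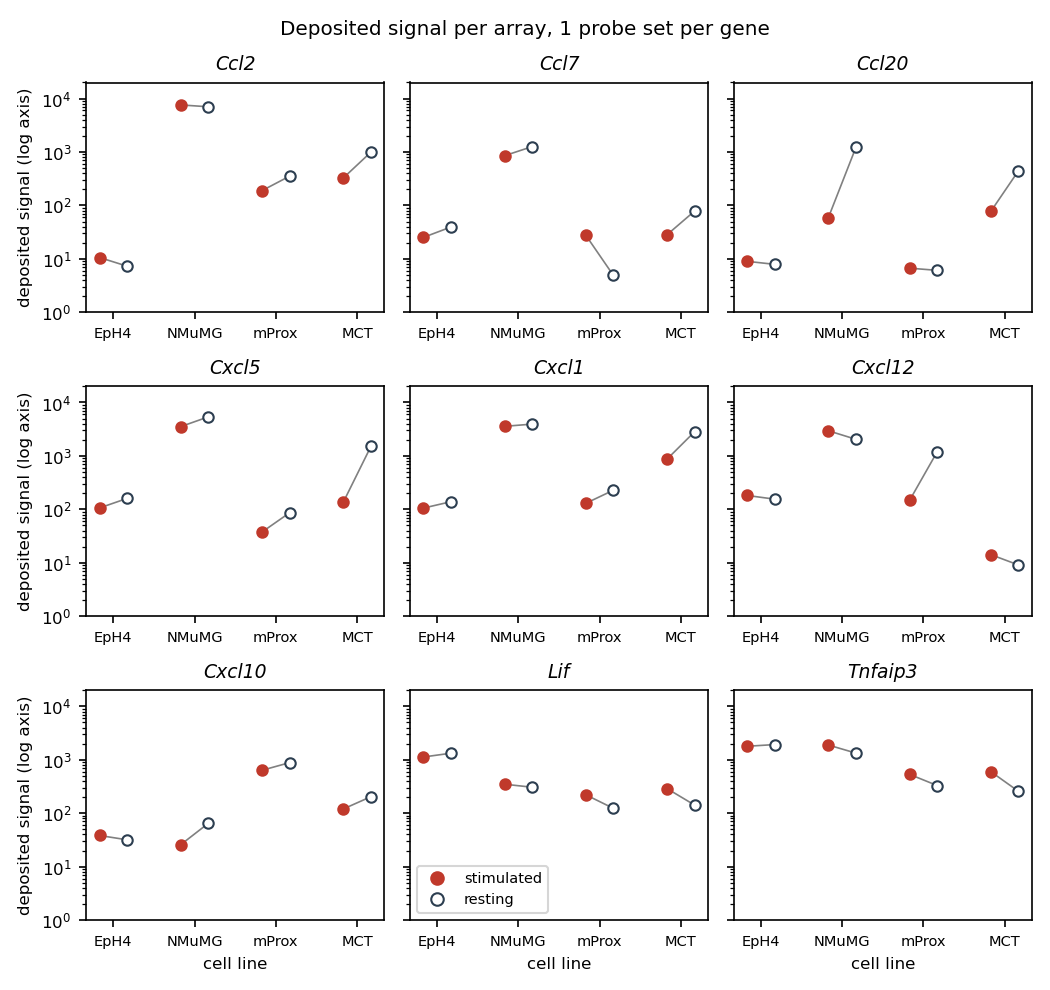
Deposited signal (log axis) of 9 genes in the 4 lines, with the stimulated array (filled) left of the resting array (open) and a line joining the pair. Cxcl1 is shown by the probe set with no mark; Ccl20 in NMuMG stands at 58.8 in stimulated cells, against 1226 in resting cells, and Cxcl12 in mProx at 147, against 1194.

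The other CXC chemokines differed in which lines were high, and Cx3cl1 was not called in the level test. Cxcl10, an interferon-inducible attractant of T cells, had signals of 38.3, 25.8, 636 and 120 in stimulated EpH4, NMuMG, mProx and MCT cells, against 31.8, 65.0, 885 and 204 in resting cells. Both kidney lines lay above both mammary lines in each condition, and Cxcl10 was 2.51-fold lower in stimulated NMuMG cells, where it was dim. Cxcl16, a transmembrane chemokine and scavenger receptor, had signals of 2059, 632, 112 and 68.7 in stimulated cells, against 2012, 581, 78.6 and 76.4 in resting cells, with the mammary lines on top. Cx3cl1 (fractalkine) stayed between 112 and 282 in stimulated and 109 and 287 in resting cells. Cxcl12, the homeostatic ligand of Cxcr4 and Ackr3, had signals of 182, 2956, 147 and 14.2 in stimulated cells, against 155, 2045, 1194 and 9.1 in resting cells. It was 7.26-fold lower in stimulated mProx cells, where its brighter probe sets gave changes of -2.86 and -2.69 and its remaining, dim one -0.21, and it was dim in MCT.

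Some marker genes of other cell types had high signals in resting mProx cells together with Cxcl12, and most markers of the same lists did not. The 7 fibroblast markers summed to 524 in stimulated mProx cells, against 2271 in resting ones, and to 184 to 450 in stimulated and 203 to 314 in resting cells of the other lines. This was mainly Dcn, with a signal of 191 in stimulated mProx cells, against 1676 in resting ones, and Lum, with 16.8, against 192. The 5 other fibroblast markers summed to 316 in stimulated mProx cells, against 403 in resting ones, and their median change was -0.02. The 14 measured leukocyte markers summed to 1230 in stimulated mProx cells, against 3517 in resting ones, and to 978 to 1374 in stimulated and 1027 to 2051 in resting cells of the other lines. Without Csf1r they summed to 1024 in stimulated mProx cells, against 1375 in resting ones, and 8 of these 13 were higher after stimulation, with a median change of 0.55. Csf1r, the receptor of Csf1, had a signal of 207 in stimulated mProx cells, against 2142 in resting ones, while the leukocyte genes Ptprc, Aif1 and Cd52 were dim on both arrays. In bulk RNA fewer cells of a type and less RNA per cell cannot be told apart, and the part of these markers in the Cxcl12 result was not tested.

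Csf1, Lif and Il18 were above the dim level on all 8 arrays, and the other 10 cytokines were dim on at least 1. Il23a, the p19 subunit of interleukin 23, had signals of 671, 14.7, 6.8 and 8.5 in stimulated EpH4, NMuMG, mProx and MCT cells, against 841, 3.8, 2.3 and 5.4 in resting cells. It was above the dim level in EpH4 and dim on all 6 other arrays. Lif, a cytokine of the interleukin 6 family, had signals of 1127, 349, 221 and 289 in stimulated cells, against 1328, 306, 123 and 142 in resting cells. The kidney lines were 1.86-fold (mProx) and 2.39-fold (MCT) higher after stimulation, and the changes in the mammary lines were 0.05 in EpH4 and -0.16 in NMuMG. A dimmer Lif probe set gave changes of 2.11 and 0.93 in mProx and MCT. Csf1, the growth factor of macrophages, had signals of 3168, 2036, 1081 and 809 in stimulated cells, against 2816, 2978, 1260 and 1044 in resting cells. All 4 of its probe sets were higher in EpH4 (0.46 to 0.63) and lower in NMuMG (-1.63 to -0.79).

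Csf2 (GM-CSF) was above the dim level on 1 array only. Its signal was 161 in stimulated MCT cells, against 3.6 in resting MCT cells, and 4.3 to 5.9 in stimulated and 5.3 to 8.2 in resting cells of the other lines. Csf3 (G-CSF) had signals of 114, 8.6, 6.8 and 56.3 in stimulated EpH4, NMuMG, mProx and MCT cells, against 132, 2.8, 7.6 and 16.6 in resting cells, so that EpH4 carried it in both conditions and MCT after stimulation. Il11, a cytokine induced by TGF-beta in many cell types, had signals of 24.6, 120, 5.5 and 36.1 in stimulated cells, against 16.9, 19.4, 15.6 and 52.7 in resting cells, and was 4.31-fold higher in stimulated NMuMG cells, against a dim resting array (1.29 to 2.5 on the log2 scale over the alternatives).

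Il33, a nuclear alarmin, had signals of 11.7, 45.2, 70.3 and 6.7 in stimulated cells, against 5.3, 91.4, 15.9 and 87.3 in resting cells. It was 3.20-fold higher in stimulated mProx cells and lower in NMuMG and MCT, 2.28-fold and 5.23-fold, but the resting mProx array and the stimulated MCT array were dim, so the mProx and MCT values depend on the offset (0.87 to 2.22 and -3.30 to -1.28 on the log2 scale over the alternatives). Il1b had signals of 47.1, 64.5, 40.3 and 26.0 in stimulated cells, against 17.2, 35.1, 94.0 and 35.8 in resting cells, so that it was higher in both mammary lines and lower in both kidney lines after stimulation. It was dim in resting EpH4 cells. Il18, made as an inactive precursor in epithelia, had MCT as its low line, with signals of 30.1 in stimulated MCT cells and 165 to 248 in the other stimulated lines, against 61.3 in resting MCT cells and 212 to 262 in the other resting lines. Tslp, an epithelial cytokine that acts on dendritic cells, was dim in EpH4 and NMuMG, and its signals were 33.3 in stimulated mProx and 26.4 in stimulated MCT cells, against 78.4 and 45.0 in resting cells.

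Whether the lines shared a response was tested with limma over all 12697 genes, with the line as a block. Over the 4 lines 0 of 29 members were called at an adjusted p under 0.05 (Benjamini-Hochberg), as were 0% of all genes tested. At an unadjusted p under 0.05 there were 2 of 29 members (6.9%), against 11.5% of all genes. These were Cxcl5, with a mean change of -1.26 ± 0.41 (SE, n = 4 lines, limma adjusted p = 0.31, lower in 4 of 4 lines), and Tnfaip3, with 0.65 ± 0.21 (limma adjusted p = 0.312, higher in 4 of 4 lines), against 5.27% of all genes lower and 6.18% higher.

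Over the 3 lines not marked as resistant 0 of 29 members were called, against 0.11% of all genes (14 genes, 0.0473% higher and 0.063% lower). At an unadjusted p under 0.05 there were 7 of 29 members (24.1%), against 12.7% of all genes, 5 of them lower (17.2%, against 6.1%) and 2 higher (6.9%, against 6.56%). The smallest adjusted p among members was 0.121, for Nfkbia, whose mean change was -0.38 ± 0.07 (SE, n = 3 lines, limma). Then came Cxcl5 at -1.60 ± 0.43 (limma adjusted p = 0.223), Tnfaip3 at 0.81 ± 0.24 (0.258), Ccl2 at -0.71 ± 0.24 (0.302), Ccl20 at -2.20 ± 0.75 (0.314), Cxcl10 at -0.70 ± 0.25 (0.325) and Lif at 0.66 ± 0.27 (0.376). All but Ccl20 and Lif had the same sign in 3 of 3 lines. Cxcl5 and Ccl20 passed in both tests when the signals were used as deposited or with an offset of 50. In the test over 3 lines Cxcl5 then had adjusted p-values of 4.58e-06 and 1.38e-05 and Ccl20 of 3.79e-07 and 1.33e-13 (limma), and across all alternatives the adjusted p ran up to 1 for both. In those 2 settings limma's prior degrees of freedom were infinite, against 5.07 with the setting used here, so each gene was given the variance common to genes of its intensity instead of its own spread between lines.

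By direction alone, 7 of 37 members (18.9%) were lower in each of the 3 lines, against 15% of all genes. They were Ccl2, Csf1, Cxcl10, Cxcl5, Nfkbia, Relb and Tslp, although by the signals as deposited Ccl2 was higher in NMuMG, 1.08 times its resting signal. Il23a, Nfkbiz and Tnfaip3 were higher in each of them (8.11%, against 17.4% of all genes), Il23a being dim on all 6 arrays of these lines. Over all 4 lines Cxcl5 was lower in each (2.7%, against 7.99%) and Nfkbiz and Tnfaip3 were higher in each (5.41%, against 9.65%). By the signals as deposited, however, stimulated EpH4 cells had 0.919 times the resting signal for Nfkbiz and 0.93 times for Tnfaip3. Stimulated mProx cells had 0.955 times the resting signal for Nfkbiz, so by those signals Nfkbiz was not higher in each of the 3 lines either.

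Seen line by line, at least 2-fold changes were few and mostly different genes. In EpH4 3 of 37 genes were at least 2-fold higher (8.11%, against 2.46% of all measured genes), Ccl5, Icam1 and Il1b, and 0 were 2-fold lower (against 2.19%). All 3 were dim in resting EpH4 cells, and Icam1 also in stimulated ones. Over the alternatives their log2 changes were 0.78 to 3.15 for Ccl5, 0.44 to 2.44 for Icam1 and 0.53 to 1.7 for Il1b. In NMuMG Il11 was higher (2.7%, against 3.85%), and Ccl20, Ccl5, Cxcl10 and Il33 were lower (10.8%, against 2.6%). In mProx Ccl7 and Il33 were higher (5.41%, against 3.51%), and Cxcl12 and Cxcl15 were lower (5.41%, against 3.14%). In MCT Csf2, Csf3, Lif and Tnfaip3 were higher (10.8%, against 3.68%), and Bcl3, Ccl2, Ccl20, Cxcl5 and Il33 were lower (13.5%, against 3.57%). Ccl20 and Il33 were each at least 2-fold lower in both NMuMG and MCT, and Il33 was also at least 2-fold higher in mProx.

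**Figure D4:**
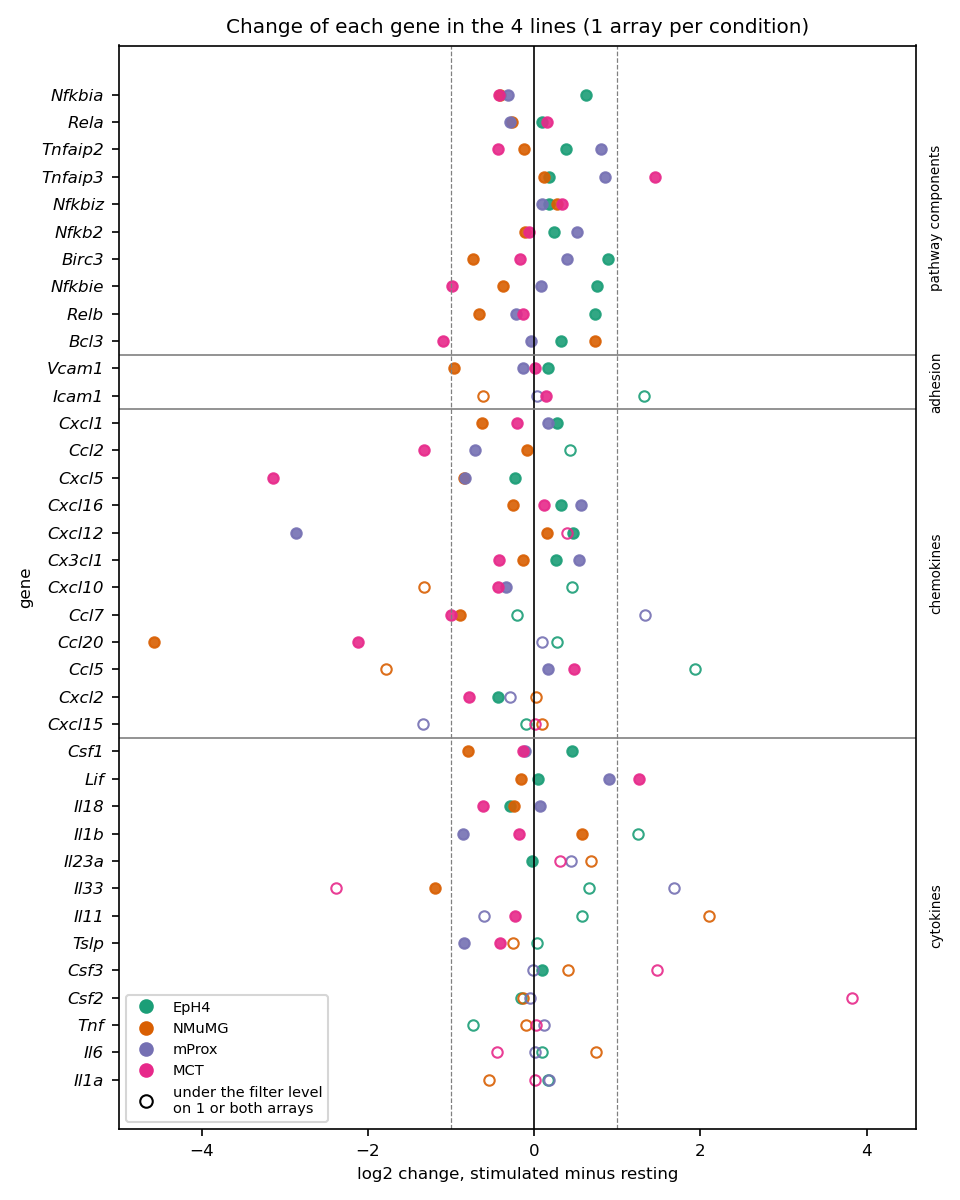
Change on stimulation (x axis, log2, stimulated minus resting) of the 37 genes, 1 point per line; open points mark a dim array in the pair and dashed lines mark 2-fold. EpH4 points lie to the right of 0 for all 10 pathway components (6 of 10 without normalization). Of all 18193 measured genes 9213 do so (3985 without normalization). Ccl20 in NMuMG lies farthest to the left at -4.57.

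Pathway components and secreted factors moved by small amounts on the median. In EpH4 the median change was 0.35 over 10 pathway components and 0.17 over 25 secreted factors, against 0 over all measured genes, and in NMuMG it was -0.19 and -0.16, against 0.04. In mProx it was 0.09 and 0.01, against 0.02, and in MCT -0.15 and -0.21, against -0.01. In EpH4 29 of 37 genes were higher after stimulation, all 10 pathway components among them, and in NMuMG 26 of 37 were lower. These signs depend on the scaling. Without normalization the median of all measured genes shifted by -0.25 in EpH4 and 0.29 in NMuMG. Then 19 of 37 members were higher in EpH4, against 3985 of 18193 genes, and 17 were lower in NMuMG, against 3982. Relative to the median of all genes, 29 of 37 members lay above it in EpH4 with either scaling, and 10 (normalized) and 9 (as deposited) did so in NMuMG.

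The response of EpH4, the line marked as resistant, was set against the mean response of the other 3 lines. In the test of this difference 0 of 29 members were called (limma, smallest adjusted p = 1), as were 0% of all genes. At an unadjusted p under 0.05 there were 6 of 29 members (20.7%), against 3.43% of all genes, and all 6 had the higher change in EpH4 (against 1.85% higher and 1.58% lower among all genes). Nfkbia led with a difference of 1.01 ± 0.14 (SE, limma adjusted p = 1), followed by Relb at 1.07 ± 0.36, Nfkbie at 1.19 ± 0.45, Ccl5 at 2.32 ± 0.89, Csf1 at 0.80 ± 0.31 and Ccl2 at 1.14 ± 0.47, all with an adjusted p of 1. In 7 of 37 genes (18.9%) the EpH4 change had the opposite sign to all 3 other lines, against 14.7% of all genes. Of the genes named for the difference, Nfkbia, Relb, Nfkbie and Csf1 were above the dim level on every array. Ccl2 was dim on both EpH4 arrays, with signals of 10.6 in stimulated and 7.3 in resting cells. Ccl5 was dim in resting EpH4 cells (5.4) and in stimulated NMuMG cells (4.3). Their differences therefore rest in part on dim arrays, and over the alternatives ran from 0.79 to 1.6 for Ccl2 and from 0.93 to 3.91 for Ccl5. EpH4 gave a single pair of arrays, so its own spread was not measured.

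The kidney lines' response was set against the mammary lines' response in the same way, with 0 of 29 members called (limma, smallest adjusted p of a member 0.691) and 0% of all genes. At an unadjusted p under 0.05 there were 6 of 29 members (20.7%), against 5.94% of all genes. Lif (1.13 ± 0.26, SE) and Tnfaip3 (1.00 ± 0.25) had the higher change in kidney lines (against 2.8% of all genes). Ccl2 (-1.19 ± 0.31), Il1b (-1.43 ± 0.50), Il11 (-1.75 ± 0.64) and Bcl3 (-1.09 ± 0.42) had the lower one (against 3.13%). Il11 was dim on 5 arrays and entered the test through its level in stimulated NMuMG cells, so its place here follows in part from the filter. Leaving out mProx, Cxcl5 passed with -2.61 ± 0.31 (limma adjusted p = 0.0222), and leaving out MCT, Cxcl12 passed with -3.17 ± 0.29 (limma adjusted p = 0.00878). Each of these rests on 1 kidney line, which is assumed to vary like the others.

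Resting kidney lines were also set against resting mammary lines, 2 against 2, with 0 of 29 members called (limma, smallest adjusted p 0.321) and 0% of all genes. At an unadjusted p under 0.05 there were 6 of 29 members (20.7%), against 7.38% of all genes. Cxcl10 (2.80 ± 0.85, SE) and Ccl5 (1.94 ± 0.74) were at higher levels in the kidney lines (against 4.73% of all genes). Cxcl16 (-3.80 ± 0.49), Tnfaip3 (-2.58 ± 0.37), Lif (-2.38 ± 0.56) and Csf1 (-1.39 ± 0.36) were at lower levels there (against 2.65%). This comparison and that of the responses share the resting arrays, so a low resting value in the kidney lines enters both.

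Other genes of the pathway were described from 3 lists. Of 20 tested genes of upstream signalling (IkB kinases, Traf adaptors, Irak kinases and their regulators) 0 were called in the test over 3 lines, and 1 was lower at an unadjusted p under 0.05. This was Tnip1, with a mean change of -0.43 over the 3 lines. Over all genes 0.11% were called, and 6.1% were lower and 6.56% higher at an unadjusted p under 0.05. Of 19 tested receptors 0 were called, 3 being lower and 1 higher at an unadjusted p under 0.05. The lower ones were Il6st, Il1r1 and Tlr4, with mean changes of -0.77, -0.75 and -0.39, and the higher one was Cx3cr1, with 0.79. Il1r1 and Cx3cr1 were dim on several arrays. Ackr3, the scavenging receptor of Cxcl12, had signals of 515, 838, 61.9 and 274 in stimulated EpH4, NMuMG, mProx and MCT cells, against 399, 412, 206 and 38.8 in resting cells, with changes of -1.37 in mProx and 2.78 in MCT. Il18r1, a chain of the interleukin 18 receptor, had signals of 1285 in stimulated and 641 in resting EpH4 cells, and of 3.0 to 17.6 in stimulated and 2.9 to 20.4 in resting cells of the other lines.

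Of 19 tested genes on a list of other NF-kB targets, 1 rose and 1 fell over the 3 lines, against 0.0473% and 0.063% of all genes. At an unadjusted p under 0.05 there were 4 higher and 3 lower. Ptgs2 (cyclooxygenase 2) had signals of 1899, 1238, 81.5 and 244 in stimulated cells, against 1915, 337, 29.0 and 112 in resting cells, and rose, with a mean log2 change of 1.36 ± 0.06 (SD, n = 3 lines, limma adjusted p = 0.0386). Lbp, the lipopolysaccharide-binding protein, had signals of 427, 306, 306 and 820 in stimulated cells, against 496, 965, 1467 and 2389 in resting cells, and fell, with a mean log2 change of -1.80 ± 0.45 (SD, n = 3 lines, limma adjusted p = 0.0347). In EpH4 their changes were 0.27 and 0.07, and the test of EpH4 against the 3 lines gave an adjusted p of 1 for each (limma). These calls were made at a setting whose count of 14 genes became 0 without the filter or the intensity trend. Lcn2 (lipocalin 2), an acute phase gene, had signals of 500, 430, 7.8 and 118 in stimulated cells, against 956, 3208, 7.0 and 1355 in resting cells. Saa3, another acute phase gene, had signals of 85.0, 689, 86.8 and 55.0 in stimulated cells, against 28.7, 1959, 88.5 and 689 in resting cells. Lcn2 and Saa3, like Ccl20, were lower in stimulated NMuMG and MCT cells, with changes of -2.99 and -3.19 for Lcn2 and of -1.76 and -3.19 for Saa3, and neither passed the test over 3 lines (limma adjusted p = 0.256 and 0.302).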

How the data were processed

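Per the submitters' processing notes, the authors summarised each probe set with MAS5, and no version is given in the sources used here. They deposited linear intensities of 45101 probe sets. Here 64 controls were removed, 10.6 (the 25th percentile) was added to each signal, and log2 values were quantile-normalized because array medians differed by 0.43, above the 0.3 set as the limit. Quantile normalization removes any overall shift between conditions. Of the remaining probe sets 34945 carry 1 gene symbol in the platform annotation, 932 several and 9160 none. The brightest single-symbol probe set represented each of 18193 genes, and the 12697 genes with a mean log2 level of at least 5.27 entered the tests. These used limma 3.58.1 under R 4.3.3 (intensity trend, Benjamini-Hochberg over all genes tested, threshold 0.05). The tests of responses had the line as a block. The test of level had the line as the tested term and treatment as an added term, and the comparison of resting lines had no block. The cell line is the replicate in the tests of responses and in the comparison of resting lines. Arrays are paired because both come from the same named line, and their deviations from the group means had correlations of 0.812 to 0.905 over genes. Nothing in the labels gives cultures per array, so the p-values of those tests measure the spread between lines and not between cultures. Those of the level test rest on what line and treatment leave unexplained. No scan date or batch is given in the sources used here, detection calls were not used here, and the number of arrays limits the precision. The members, the gene lists and the naming rule (all members; per list the genes past the test, then the largest changes) were chosen with earlier results of these data known. In the lists of upstream signalling and receptors, where 0 genes passed, genes were named by an unadjusted p under 0.05 instead of by the largest changes. Il18r1 and Ackr3 were named after their values were seen. Alternatives covered scaling, offset, filter, probe set choice, variance trend, block and leaving out each line. Promoter sequences are RefSeq's, on GRCm38.p6, and the genes' symbols were matched through Entrez identifiers for 34741 probe sets.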

Additional observations from a re-analysis of the deposited data

Results flagged for a closer look

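Of 98 groups of 4 values examined (levels in stimulated cells, levels in resting cells and changes), 10 had 1 line standing apart from the other 3 by Dixon's criterion. The nominal rate of this criterion is about 1 in 20, which is not a background for these lines. Of all genes tested 66.7% differed in level between the lines, and the share of all genes past Dixon's criterion was not determined. The 10 are therefore not read as an excess. In stimulated cells these were Il23a in EpH4 at 9.28, against 4.09 to 4.63 in the other lines, Ccl7 in NMuMG at 9.87, against 5.22 to 5.46, Csf2 in MCT at 7.67, against 3.87 to 4.03, and Tslp in NMuMG at 4.16, against 5.26 to 5.42 (log2 levels). In resting cells they were Il23a in EpH4 at 9.30, against 3.65 to 4.04, Rela in NMuMG at 12.16, against 11.30 to 11.43, and Relb in NMuMG at 8.54, against 7.46 to 7.58. Among changes they were Csf2 in MCT at 3.82, against -0.16 to -0.05, Cxcl12 in mProx at -2.86, against 0.15 to 0.47, and Nfkbia in EpH4 at 0.62, against -0.42 to -0.31. Tslp was not among the genes tested and was dim in stimulated EpH4 and NMuMG cells. A line is 1 array per condition, so a line that stands apart cannot be told apart from an array that does.

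Of 29 genes examined, 2 moved in EpH4 by at least 1.2-fold one way and in each of the other 3 lines by at least as much the other way. The share of all genes under this rule was not determined. By sign alone it was 18.9% of the 37 members, against 14.7% of all genes. Nfkbia had a change of 0.62 in EpH4, against -0.41, -0.31 and -0.42 in NMuMG, mProx and MCT. Cxcl10 had a change of 0.46 in EpH4, against -1.33, -0.34 and -0.44. It was dim in resting EpH4 and in stimulated NMuMG cells, and its EpH4 signals were 38.3 in stimulated and 31.8 in resting cells. The test of the difference gave an adjusted p of 1 for each (limma).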

How the results depend on the processing

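The count of genes called over 4 lines, 0, became 238 with signals as deposited, 11 with arrays scaled to one trimmed mean, 1 with an offset of 1 and 254 with an offset of 50. Over 3 lines the count of 14 became 215 as deposited, 38 scaled, 234 with an offset of 50, 8 with the mean of a gene's probe sets and 0 with no filter or no intensity trend. Without the replicate block for the line it was also 0. Members called in these 2 tests went to 2, Cxcl5 and Ccl20, as deposited and with an offset of 50. For EpH4 minus the other lines the count of 0 became 5 as deposited and 11 with an offset of 50, including 1 member, Ccl20 (adjusted p = 0.0313, limma). For kidney minus mammary responses it became 21 as deposited and 26 with an offset of 50, and for resting kidney minus mammary lines 6 as deposited, with 0 members. The settings as deposited and with an offset of 50 had infinite prior degrees of freedom in limma for the 4 tests of responses; for the other counts the cause was not tested. Leaving out 1 line gave 0 to 13 genes over 4 lines, the 13 without EpH4, 9 to 77 over 3 lines (9 without mProx, 77 without NMuMG), 0 for the EpH4 difference and 0 to 35 for the kidney difference (17 without mProx, 35 without MCT), with 0 to 1 members. The EpH4 difference could not be fitted without EpH4. The block changed no call of a member.

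Level differences between lines were called for 5950 to 8615 genes and 17 to 24 members, against 8469 and 21. NMuMG was the highest line for 17 members as deposited and 25 with arrays scaled, against 24. Besides the lines left out, Rela lost its call as deposited (adjusted p = 0.103) and with an offset of 50 (0.101). Nfkbia lost it with an offset of 1 (0.053), no filter (0.0907), no intensity trend (0.132) and the mean of its probe sets (0.0524). Nfkbie (0.0667 and 0.0737) and Ccl5 (0.0694 and 0.075) lost it with no filter and no trend, and Ccl5 also with an offset of 1 (0.0774; all limma). The 21 changes of at least 2-fold, summed over members and lines, became 34 with an offset of 1 and 11 with an offset of 50, and 0 of them turned sign. Dim genes carry this dependence. In stimulated MCT cells the Csf2 change of 3.82 was 5.33 and 1.98 with those offsets. The median mean change of pathway components ran from -0.05 to 0.04 and that of secreted factors from -0.23 to -0.10.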
